A study of Homo sapiens with 36 samples.

Results

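The 10 genes described here encode enzymes that make asparagine, serine, glycine, proline and cysteine or act on the accompanying folate-bound carbon units. They are ASNS, PHGDH, PSAT1, PSPH, SHMT2, MTHFD2, ALDH1L2, PYCR1, ALDH18A1 and CTH, taken by name as enzymes known as targets of the transcription factor ATF4, out of 25344 gene symbols in the deposited table. The list was chosen with earlier results of these data known, so its counts beside the shares of all genes are descriptions and not independent support. All 10 were found by symbol, and all 10 were among the 9847 genes that passed a filter on low counts. The cells were HMC3, an established human microglial line, given perfluorooctane sulfonate (PFOS), a persistent perfluorinated surfactant. RNA-seq covered vehicle and PFOS at 25 and 50 µM in 3 libraries each, harvested when the 24 h exposure ended, and the same 3 treatments harvested 24 h later, after fresh medium without PFOS (recovery). The labels describe the fresh medium for recovery samples in general and do not single out vehicle. Of 36 samples in the series, the 18 of H3K27ac CUT&Tag were not analysed here.

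ATF4 is made when phosphorylation of the initiation factor eIF2α slows translation in general, the integrated stress response that amino acid shortage, endoplasmic reticulum stress, haem shortage and viral RNA can set off. It binds composite C/EBP-ATF response elements in genes for amino acid synthesis, uptake and tRNA charging, and ASNS is the textbook example of such a gene. Serine made from glycolytic 3-phosphoglycerate feeds the mitochondrial folate pathway, which supplies formate for nucleotide synthesis, while proline is made from glutamate and cysteine from methionine-derived homocysteine.

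RefSeq promoter entries (GRCh38.p14, from 250 bases before to 50 after the start of transcription) were matched for 6 of the 10 genes: ASNS, PHGDH, PSAT1, MTHFD2, ALDH18A1 and CTH. Windows of 3 genes are shown, over the 120 bases before the start, as the gene with a motif match, a called gene without one, and the gene that moved least at 24 h. Each is written 5′ to 3′ on the strand of its gene, and capitals mark the match to the C/EBP-ATF response element searched as TGATGNAAN.
ASNS, chr7:97872409-97872528, minus strand: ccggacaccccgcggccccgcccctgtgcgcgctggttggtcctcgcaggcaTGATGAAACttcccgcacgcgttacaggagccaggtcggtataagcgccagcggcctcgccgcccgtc
PSAT1, chr9:78297005-78297124, plus strand: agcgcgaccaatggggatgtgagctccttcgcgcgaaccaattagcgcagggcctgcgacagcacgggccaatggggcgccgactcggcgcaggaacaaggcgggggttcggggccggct
ALDH18A1, chr10:95656712-95656831, minus strand: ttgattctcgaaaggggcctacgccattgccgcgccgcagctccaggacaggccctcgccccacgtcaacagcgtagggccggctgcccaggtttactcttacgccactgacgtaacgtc
The element was searched on both strands of the whole entry, and 1 of the 6 genes, ASNS, held it, at 68 to 60 bases before the start and on the strand of the gene. ASNS has 2 promoter entries, and this position counts from the start of the entry shown, which lies inside the span given for ASNS below. The element stood in at least 1 entry of 4.45% of all 27305 RefSeq genes searched, and in 3.61% of their 35116 promoter entries. The narrower form TGATGNAAT, every match of which is also a match of the first form, stood in 1.22% of genes and in 0 of the 6. The cAMP response element TGACGTCA stood in 2.25% of genes and in 0 of the 6. A match describes letters only, and its absence from this window says nothing about the factor, which can bind outside it.

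Total counts per library ran from 582233 to 4346627, so values of the low genes rest on few counts, and amplified reads without molecular identifiers are not independent molecules. The 10 enzymes ranged from CTH, with 281 counts over all 18 libraries, to PSAT1, with 20093. The 3 libraries of 50 µM PFOS after recovery stood apart: ribosomal protein genes took 2.94%, 7.58% and 5.03% of their counts, against 1.21% to 2.43% in the other 15 libraries. Of 13 microglia and macrophage markers reported here 1 could be tested and 5 (AIF1, CX3CR1, C1QA, C1QB and TYROBP) had 0 counts in every library, with 1 count in all for TMEM119 and for SPI1, while 6 of 9 mesenchymal markers were tested. Apart from the lysosomal gene CD68, which many cells express, these markers of the labelled cell type were thus absent or near 0. CD68 held 1036 counts over all libraries and no other marker of the list more than 28. The 13 markers summed, CD68 included, to 53.4 to 80.8 CPM at 50 µM for 24 h, against 21.5 to 23.2 CPM in vehicle, and to 47.2 to 66.6 CPM after 50 µM and recovery, against 17.7 to 28.8 CPM in vehicle. Summed mesenchymal markers were 1110 to 1320 CPM at 50 µM for 24 h, against 2870 to 2980 CPM in vehicle, and 475 to 1870 CPM after 50 µM and recovery, against 2230 to 3010 CPM in vehicle. The mesenchymal markers not tested, COL3A1, DCN and LUM, had 0, 1 and 3 counts over all libraries. The 3 epithelial markers summed to 888 to 909 CPM at 50 µM for 24 h, against 676 to 747 CPM in vehicle, and to 1000 to 1240 CPM after 50 µM and recovery, against 544 to 577 CPM in vehicle. Most of this sum was KRT18, with 23969 counts over all libraries, against 1262 for KRT8 and 30 for EPCAM. The part of these lists in the results below was not tested. The labels call the 3 libraries of a group biological replicates and say nothing of separate cultures, so that a p-value here reflects no more than the spread among libraries. The main tests of genes took that spread from all 18 libraries together, those of 50 µM after recovery included. Levels are counts relative to library size (CPM) and are not corrected for gene length, so they are compared across groups and not between genes. They are relative to the total RNA of each library, so a change in RNA per cell, or loss of some cells of the culture, cannot be told apart from a change in the gene.

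Most of the enzymes were higher after 24 h of PFOS at either dose. At 25 µM, 6 of the 10 rose and 0 fell by edgeR's quasi-likelihood test at an adjusted p under 0.05, where 0.782% of all tested genes rose and 0.457% fell. The median log2 change of the 10 was 0.99, against 0.00 over all genes tested. At 50 µM, 7 rose and 0 fell, where 9.18% of tested genes rose and 9.59% fell, and the median was 1.21, against 0.01 over all genes. The 3 PFOS libraries lay wholly above the 3 vehicle libraries for 9 of the 10 genes at 25 µM, where 11.4% of tested genes did so, and for 8 of the 10 at 50 µM, where 20.3% did. Both comparisons use the same vehicle libraries. Summed over the 10 genes, the libraries held 3532, 3730 and 3518 CPM at 25 µM and 4313, 4276 and 4385 CPM at 50 µM, against 1650, 1812 and 1865 CPM in vehicle.

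**Figure D1:**
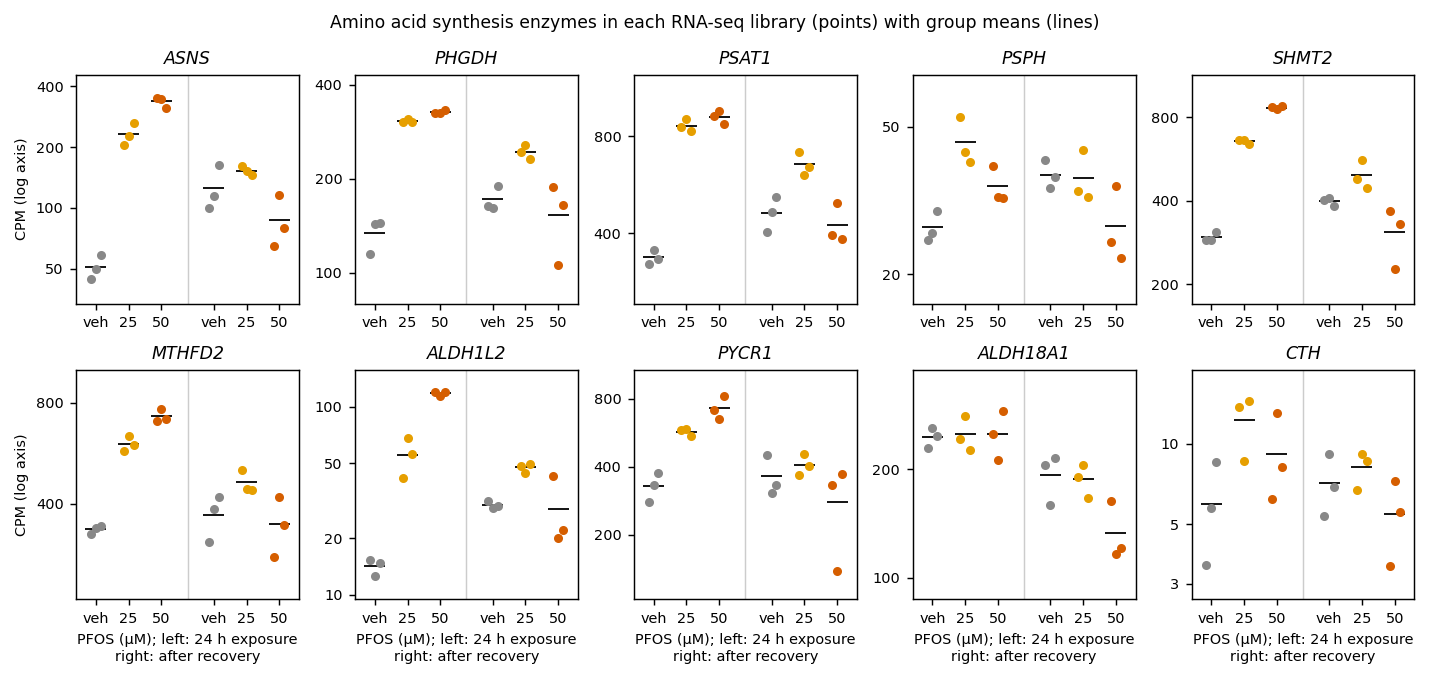
Level of each of the 10 enzymes in every library, in CPM on a log axis, by PFOS dose (veh, vehicle; 25 and 50 µM) directly after 24 h (left of the grey line) and after recovery (right). Points are libraries and lines are group means (n = 3); ASNS and ALDH1L2 span the widest range, and ALDH18A1 stays between 212 and 290 CPM in all 9 libraries at 24 h.

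ASNS, asparagine synthetase, moves an amide group from glutamine onto aspartate (chromosome 7: 97851677-97928441, GRCh38.p14). It stood at 206, 227 and 262 CPM at 25 µM, against 44.7, 49.7 and 58.6 CPM in vehicle. The lowest PFOS library was far above the highest vehicle library, and the log2 change was 2.16 ± 0.20 (SE; adjusted p = 3.22e-06). At 50 µM it stood at 352, 348 and 314 CPM, a log2 change of 2.70 ± 0.20 over vehicle (adjusted p = 7.41e-09). The 3 libraries at 50 µM also lay above the 3 at 25 µM, yet the difference of 0.54 ± 0.19 did not pass (adjusted p = 0.0824). It passed in fits of the compared libraries alone (adjusted p = 0.00139) and without the 50 µM recovery libraries (adjusted p = 0.00994), and its adjusted p ran from 0.00139 to 0.257 over all alternatives. RefSeq lists 5 pseudogenes of ASNS, none of which is a row of the table, and a readthrough transcript over the same locus, so reads shared with them cannot be told apart.

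The serine branch runs in 3 steps, and its first and second enzymes rose while the third did not pass the test. PHGDH, phosphoglycerate dehydrogenase, opens the branch (chromosome 1: 119711934-119744215). It stood at 305, 311 and 304 CPM at 25 µM, against 115, 143 and 144 CPM in vehicle (log2 change 1.18 ± 0.16, adjusted p = 0.000284). At 50 µM it stood at 326, 325 and 332 CPM (1.28 ± 0.16 over vehicle, adjusted p = 9e-06). The replicates of each PFOS group lay within a few CPM of each other, and the doses differed by 0.10 ± 0.16, which did not pass (adjusted p = 0.782). PSAT1, the aminotransferase of the second step (chromosome 9: 78297125-78330093), stood at 854, 903 and 829 CPM at 25 µM, against 322, 355 and 333 CPM in vehicle. Its log2 change was 1.355 ± 0.13 at 25 µM (adjusted p = 4.28e-06) and 1.45 ± 0.13 at 50 µM (adjusted p = 1.34e-07), where the libraries held 927, 958 and 875 CPM. The 2 doses overlapped for PSAT1, with a difference of 0.09 ± 0.13 (adjusted p = 0.739).

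PSPH, the phosphatase that releases free serine (chromosome 7: 56011064-56051444), was the exception in this branch. It stood at 53.3, 42.9 and 40.3 CPM at 25 µM, against 24.7, 25.9 and 29.7 CPM in vehicle, groups that did not overlap, with a log2 change of 0.73 ± 0.19 (adjusted p = 0.0718). At 50 µM it stood at 39.3, 32.4 and 32.1 CPM, a difference of 0.34 ± 0.21 from vehicle (adjusted p = 0.275). Every library at 50 µM lay below every library at 25 µM, the opposite order to ASNS, with a difference of -0.39 ± 0.20 that did not pass (adjusted p = 0.258). At 25 µM PSPH passed in a fit of the compared libraries alone (adjusted p = 0.0161) and without the 50 µM recovery libraries (adjusted p = 0.0185), with a range of 0.0161 to 0.349 over all alternatives. RefSeq lists 4 pseudogenes of PSAT1 and 1 of PSPH, none of them a row of the table.

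The 3 of the 10 enzymes that act in mitochondrial folate metabolism rose at both doses. MTHFD1L, the mitochondrial formyltetrahydrofolate synthetase and not among the 10, was not called, at 0.46 ± 0.31 at 25 µM (adjusted p = 0.777) and 0.58 ± 0.33 at 50 µM (adjusted p = 0.241). SHMT2, the mitochondrial serine hydroxymethyltransferase, splits serine into glycine and a folate-bound carbon (chromosome 12: 57229711-57234935). It stood at 662, 661 and 642 CPM at 25 µM, against 289, 290 and 309 CPM in vehicle (log2 change 1.14 ± 0.15, adjusted p = 0.000105). At 50 µM it stood at 868, 853 and 876 CPM (1.545 ± 0.15 over vehicle, adjusted p = 1.87e-07). The groups at 25 and 50 µM did not overlap, and their difference of 0.40 ± 0.14 did not pass (adjusted p = 0.0943). DESeq2 gave adjusted p = 0.0401 for it, the compared libraries alone 0.00334 and a fit without the 50 µM recovery libraries 0.00825, in a range up to 0.255.

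MTHFD2, the mitochondrial methylenetetrahydrofolate dehydrogenase and cyclohydrolase, carries that unit on towards formate (chromosome 2: 74198615-74217565). It stood at 575, 637 and 599 CPM at 25 µM, against 326, 338 and 343 CPM in vehicle, with a log2 change of 0.845 ± 0.15 (adjusted p = 0.00274). At 50 µM it stood at 707, 768 and 713 CPM (1.12 ± 0.15 over vehicle, adjusted p = 1.25e-05). Vehicle, 25 µM and 50 µM libraries formed 3 ranges without overlap, though the step between the doses, 0.27 ± 0.15, did not pass (adjusted p = 0.291). MTHFD2 overlaps SLC4A5, which held 299 counts in all libraries against 15720 for MTHFD2. Of its 7 RefSeq pseudogenes 1 is a row of the table and had 0 counts.

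ALDH1L2, the mitochondrial formyltetrahydrofolate dehydrogenase, oxidises the formyl unit to carbon dioxide with gain of NADPH (chromosome 12: 105019790-105084458). It stood at 41.8, 68 and 56 CPM at 25 µM, against 15.3, 12.6 and 14.7 CPM in vehicle (log2 change 2.00 ± 0.23, adjusted p = 4.69e-05). At 50 µM it stood at 120, 114 and 119 CPM, 3.06 ± 0.23 over vehicle (adjusted p = 7.41e-09). It had the highest log2 change of the 10 at 50 µM, and it was the 1 gene of the 10 whose level at 50 µM was called higher than at 25 µM, by 1.065 ± 0.20 (adjusted p = 0.00215), where 3.79% of tested genes were called higher and 3.62% lower. Between the doses the 3 and 3 libraries did not overlap in the upward direction for 6 of the 10 genes, where 17.2% of tested genes did so, and in the downward direction for 1, PSPH, where 18.1% did.

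The proline branch was split between its enzymes. PYCR1, a mitochondrial pyrroline-5-carboxylate reductase, makes proline in the last step (chromosome 17: 81932391-81937300). It stood at 580, 588 and 547 CPM at 25 µM, against 280, 331 and 375 CPM in vehicle. These groups did not overlap, but the log2 change of 0.79 ± 0.235 did not pass (adjusted p = 0.144). It passed without the filter on low counts (adjusted p = 0.000963), with the compared libraries alone (adjusted p = 4.31e-05) and without the 50 µM recovery libraries (adjusted p = 0.000578), and other alternatives reached 0.445. At 50 µM PYCR1 stood at 715, 652 and 825 CPM and rose by 1.15 ± 0.24 over vehicle (adjusted p = 0.00163).

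ALDH18A1, pyrroline-5-carboxylate synthase, takes the first step from glutamate (chromosome 10: 95605941-95656711). It stood at 242, 282 and 226 CPM at 25 µM and at 251, 212 and 290 CPM at 50 µM, against 229, 260 and 248 CPM in vehicle. The 3 groups overlapped, with log2 differences from vehicle of 0.02 ± 0.16 at 25 µM (adjusted p = 0.994) and 0.03 ± 0.16 at 50 µM (adjusted p = 0.921). The sign of such small differences turned with single libraries, from -0.08 to 0.145 at 50 µM.

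CTH, cystathionine gamma-lyase, releases cysteine from cystathionine (chromosome 1: 70411268-70439851). It stood at 13.7, 8.63 and 14.5 CPM at 25 µM, against 3.53, 5.77 and 8.54 CPM in vehicle, ranges that missed each other narrowly. The log2 difference was 0.825 ± 0.33 and did not pass (adjusted p = 0.407). At 50 µM CTH stood at 6.21, 13.0 and 8.16 CPM, overlapping vehicle (0.43 ± 0.37, adjusted p = 0.463). These values rest on 3 to 41 counts per library, and CTH exceeded the filter's 7.44 CPM in 9 of the 18 libraries, 3 of them at 25 µM for 24 h. The adjusted p at 25 µM ran from 0.203 to 0.808 over the alternatives.

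**Figure D2:**
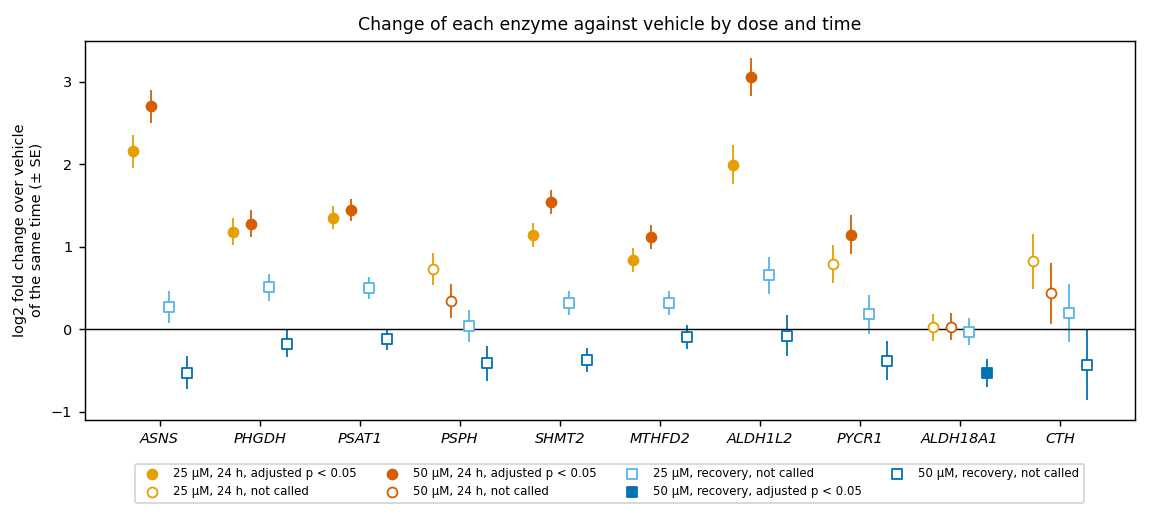
Log2 fold change of each enzyme over vehicle of the same time, with its SE, for 25 and 50 µM PFOS directly after 24 h (circles) and after recovery (squares); filled symbols passed an adjusted p of 0.05 in the fit of all 18 libraries. The circles lie above 0 for 9 genes and near 0 for ALDH18A1, and the squares lie between -0.54 and 0.66.

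The ratio of an enzyme to a paralog within a library does not depend on scaling, and it was taken for SHMT2 with SHMT1 and for MTHFD2 with MTHFD1. SHMT1, the cytosolic serine hydroxymethyltransferase, stood at 81.8, 109 and 97.4 CPM at 50 µM, against 213, 214 and 211 CPM in vehicle, and fell by 1.14 ± 0.14 on the log2 scale (adjusted p = 5.01e-06). The SHMT2 to SHMT1 count ratio was 10.6, 7.81 and 8.99 at 50 µM and 3.72, 3.54 and 3.31 at 25 µM, against 1.36, 1.36 and 1.47 in vehicle. Every PFOS library had a higher share of the mitochondrial transcript than every vehicle library, with mean log2 ratios apart by 2.695 at 50 µM (3.18 ± 0.22 against 0.48 ± 0.07 in vehicle, SD, n = 3 each) and by 1.33 at 25 µM.

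The ratio of MTHFD2 to MTHFD1, the cytosolic trifunctional enzyme, was 1.38, 1.62 and 1.53 at 50 µM and 1.12, 1.03 and 1.11 at 25 µM, against 0.607, 0.685 and 0.695 in vehicle. MTHFD1 itself averaged 484 ± 24.6 CPM at 50 µM and 508 ± 24.4 CPM in vehicle (SD, n = 3 each) and was not called. In all 4 comparisons at 24 h the PFOS libraries lay above the vehicle libraries, and each had p = 0.1 by an exact two-sided permutation test, the smallest that 3 against 3 libraries allow (0.133 adjusted over 8 such tests). A ratio shows unequal change and not which partner moved.

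**Figure D3:**
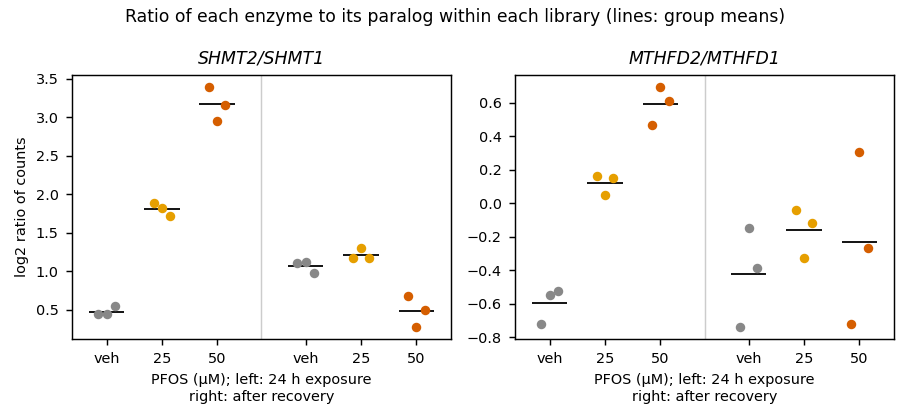
Log2 ratio of the counts of each enzyme to those of its paralog within each library, by PFOS dose (veh, vehicle; 25 and 50 µM) directly after 24 h (left of the grey line) and after recovery (right). Points are libraries and lines are group means; at 24 h the 3 ranges of SHMT2/SHMT1 are apart, with means of 0.48 in vehicle, 1.81 at 25 µM and 3.18 at 50 µM.

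Beyond the 10 enzymes, 55 other genes of the same pathways are reported here, and 41 of them could be tested. At 25 µM 3 of the 41 rose and 0 fell, where 0.782% and 0.457% of all tested genes did, with a median log2 change of 0.03, against 0.00 over all genes. They were GPT2, mitochondrial alanine aminotransferase, at 1.025 ± 0.24, ASS1, which joins citrulline and aspartate, at 0.945 ± 0.19, and CHAC1, which degrades glutathione, at 1.85 ± 0.32. At 50 µM 3 of the 41 rose and 1 fell, where 9.18% and 9.59% of all tested genes did, with a median of -0.05, against 0.01 over all genes. Both shares were thus below those of all genes, but these counts are too small to read a difference from. ASS1 stood at 124, 127 and 133 CPM, against 20, 18.4 and 26.5 CPM in vehicle, a log2 change of 2.53 ± 0.19 (adjusted p = 5.38e-09). CHAC1 rose by 2.76 ± 0.32 and MPST, which transfers sulfur from a cysteine product, by 0.795 ± 0.24. The gene that fell was SHMT1. By pathway, 0 of 3 tested other proline genes, 0 of 4 serine and glycine genes and 0 of 12 folate genes rose at either dose, lists too short to read anything from a count of 0.

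**Figure D4:**
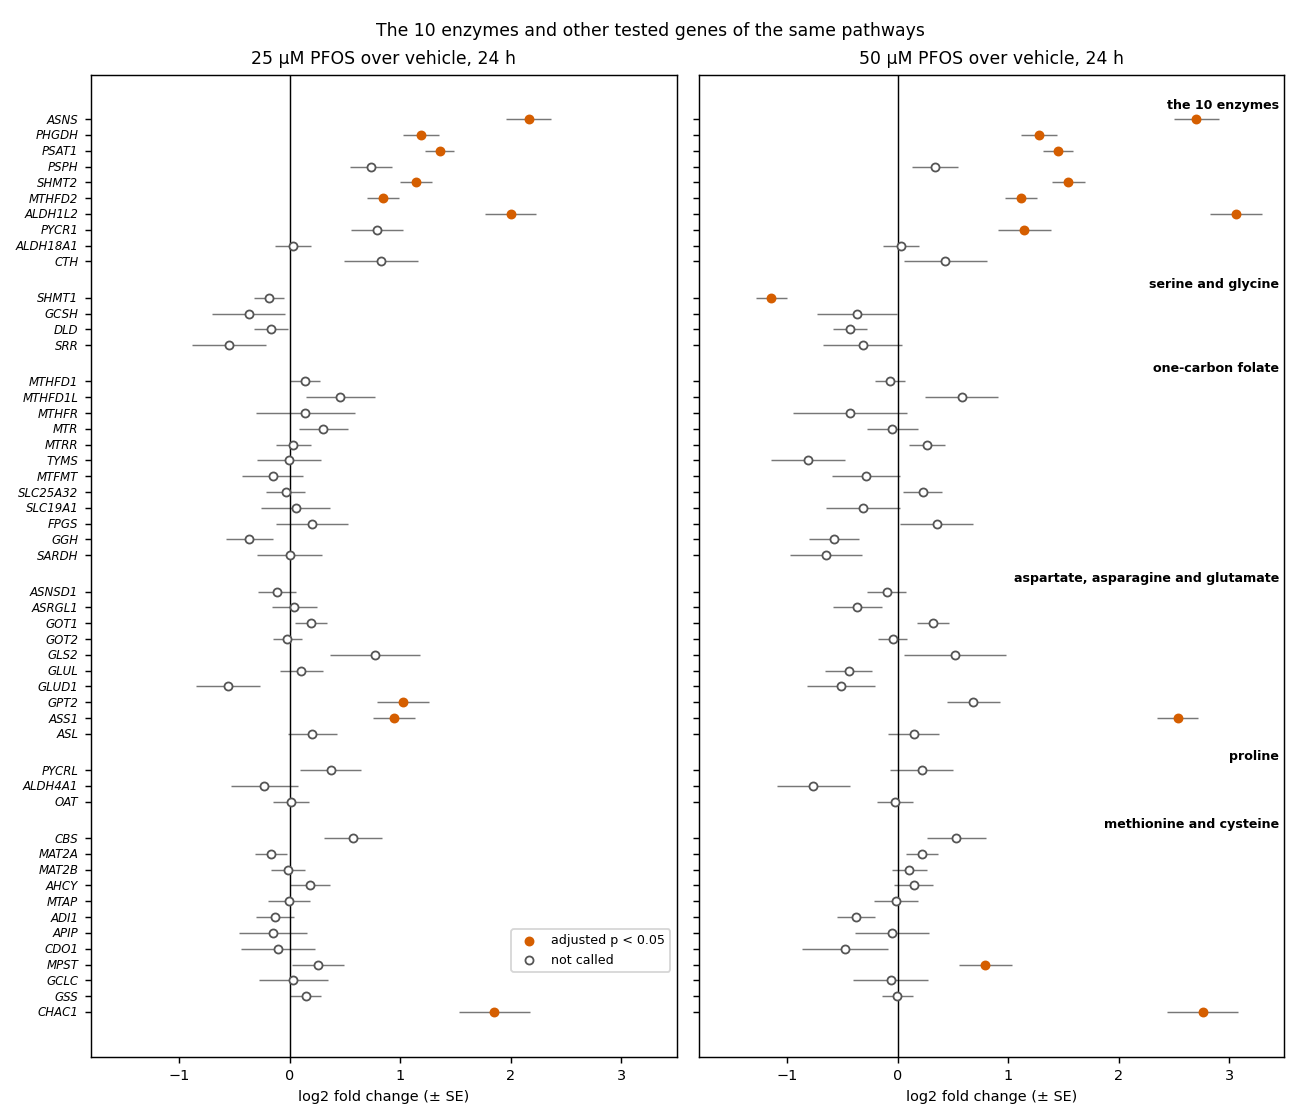
Log2 fold change with its SE of the 10 enzymes and of the 41 other tested genes of the same pathways after 24 h of 25 µM PFOS (left) and 50 µM PFOS (right), over vehicle. Filled points passed an adjusted p of 0.05: 6 and 7 of the enzymes, and 3 and 4 of the other genes.

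ATF4 mRNA was also higher at 24 h. It stood at 120, 110 and 120 CPM at 25 µM (log2 change 0.84 ± 0.18, adjusted p = 0.0172) and at 197, 181 and 186 CPM at 50 µM (1.53 ± 0.18, adjusted p = 2.89e-06), against 80.0, 53.3 and 65.7 CPM in vehicle. Its dimer partner CEBPG rose by 0.80 ± 0.15 at 25 µM and 0.87 ± 0.16 at 50 µM. DDIT3, the stress factor CHOP, stood at 158, 154 and 135 CPM at 50 µM, against 29.4, 23.8 and 27.1 CPM in vehicle (2.49 ± 0.26, adjusted p = 5.11e-07). At 25 µM DDIT3 stood at 51.9, 42.4 and 48.4 CPM, a difference of 0.84 ± 0.26 that did not pass (adjusted p = 0.177). Of 13 tested regulators listed, 3 rose and 0 fell at 25 µM (ATF4, CEBPG and the pseudokinase TRIB3), and at 50 µM 5 rose (these, DDIT3 and the phosphatase subunit PPP1R15A) and 1 fell, the RNA-activated eIF2α kinase EIF2AK2. Of all tested genes 0.782% rose and 0.457% fell at 25 µM, and 9.18% rose and 9.59% fell at 50 µM. ATF3 and MYC were called at neither dose. ATF4 is controlled largely in translation, which these data do not measure.

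Among vehicle cells alone, 2 of the 10 enzymes were called higher after recovery than at 24 h and 0 lower, where 0.335% of tested genes were called higher and 0.64% lower. ASNS stood at 99.6, 114 and 163 CPM in vehicle after recovery, against 44.7, 49.7 and 58.6 CPM in vehicle at 24 h, with a log2 change of 1.28 ± 0.20 (adjusted p = 0.00285). ALDH1L2 stood at 31.4, 28.8 and 29.8 CPM in vehicle after recovery, against 15.3, 12.6 and 14.7 CPM in vehicle at 24 h (1.09 ± 0.24, adjusted p = 0.0361). The vehicle libraries of the 2 times did not overlap for 6 of the 10 genes in the upward direction, where 8.76% of tested genes did so, and for ALDH18A1 in the downward direction, where 9.54% did. The call of ALDH1L2 was lost when any of these 6 libraries was left out, with adjusted p from 0.0514 to 0.268, and that of ASNS passed in each of these fits. PFOS after recovery is therefore set against vehicle of the same time below.

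After 25 µM PFOS and recovery, 0 of the 10 enzymes were called by edgeR in either direction, and likewise 0.0% of all tested genes. Before adjustment 693 genes had a p under 0.05, DESeq2 called 1 gene, and edgeR called 5 without the filter and 9 without the 50 µM recovery libraries, 0 of them among the 10 enzymes. The median log2 difference of the 10 was 0.295, against 0.00 over all genes. For 5 of the 10 the PFOS libraries still lay wholly above vehicle, where 6.89% of tested genes did so. PSAT1 stood at 718, 608 and 643 CPM after 25 µM, against 403, 467 and 520 CPM in vehicle (log2 difference 0.50 ± 0.13, adjusted p = 0.523). PHGDH stood at 243, 256 and 231 CPM after 25 µM, against 164, 161 and 190 CPM in vehicle (0.51 ± 0.16, adjusted p = 0.539). ALDH1L2 stood at 48.6, 44.4 and 49.7 CPM after 25 µM, against 31.4, 28.8 and 29.8 CPM in vehicle (0.655 ± 0.22, adjusted p = 0.565). SHMT2, at 0.32 ± 0.145, and MTHFD2, at 0.315 ± 0.15, were the other 2 whose libraries did not overlap. ASNS overlapped vehicle, at 161, 153 and 145 CPM after 25 µM, against 99.6, 114 and 163 CPM in vehicle (0.275 ± 0.19, adjusted p = 0.833).

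After 50 µM PFOS and recovery, 0 of the 10 enzymes were called higher and 1 lower than vehicle, where 17.7% and 10.7% of tested genes were. The median log2 difference of the 10 was -0.38, against -0.05 over all genes. ALDH18A1 was the gene called, at 163, 116 and 121 CPM after 50 µM, against 206, 159 and 215 CPM in vehicle (-0.535 ± 0.17, adjusted p = 0.024). The ranges overlap through 1 library of each group, and the call was lost without vehicle library 1 (adjusted p = 0.0895) or 3 (0.0859), without 50 µM library 2 (0.0995) or 3 (0.084), and in a fit of these 6 libraries alone (0.228), in a range from 0.0031 over all alternatives. SHMT2 stood at 366, 227 and 331 CPM after 50 µM, against 402, 409 and 382 CPM in vehicle, the 1 gene of the 10 whose libraries lay wholly below, where 14.1% of tested genes did so (-0.37 ± 0.15, adjusted p = 0.0627). It passed without 50 µM library 1 (adjusted p = 0.00829) and with DESeq2 (adjusted p = 0.0456), and other alternatives reached 0.421.

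ASNS stood at 65.1, 116 and 79.2 CPM after 50 µM and recovery, against 99.6, 114 and 163 CPM in vehicle, a difference of -0.53 ± 0.20 that did not pass (adjusted p = 0.0569). It passed without 50 µM library 2, at -0.82 (adjusted p = 0.00574), without vehicle library 1 (adjusted p = 0.0364), without TMM scaling (adjusted p = 0.03) and without the filter on low counts (adjusted p = 0.0282), and its adjusted p reached 0.31 over all alternatives. That library 2 is the one with 7.58% ribosomal protein counts, and it was the lowest of the 3 for PHGDH, SHMT2, ALDH1L2, PYCR1 and ALDH18A1 and the highest for ASNS, PSAT1, PSPH, MTHFD2 and CTH. PYCR1 in particular stood at 332, 138 and 372 CPM, so its mean of 281 ± 126 CPM (SD, n = 3) describes none of the 3. The part of this library's composition in these values was not tested.

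Regulators were also measured after recovery from 50 µM. ATF4 stood at 110, 180 and 144 CPM after 50 µM, against 84.3, 112 and 95.2 CPM in vehicle, overlapping ranges with a log2 change of 0.57 ± 0.18 (adjusted p = 0.0191). DDIT3 stood at 88.4, 235 and 154 CPM after 50 µM, against 36.8, 51.6 and 41.7 CPM in vehicle (1.86 ± 0.24, adjusted p = 2.72e-05). CEBPG fell to 40.7, 51.9 and 38.9 CPM after 50 µM, against 59.7, 68.1 and 65.9 CPM in vehicle (-0.55 ± 0.17, adjusted p = 0.0191). The eIF2α kinase EIF2AK4 also fell (-0.68 ± 0.22, adjusted p = 0.024). Of 13 tested regulators 2 thus rose and 2 fell, where 17.7% and 10.7% of all tested genes did. TRIB3 (0.05 ± 0.27) and PPP1R15A (-0.05 ± 0.21), which rose at 50 µM for 24 h, were not called. The highest ATF4 and DDIT3 values are those of library 2, the one with 7.58% ribosomal protein counts. Among the 41 other pathway genes 4 rose and 3 fell, where 17.7% and 10.7% of all tested genes did. These counts are too small to read a difference from. Those that rose were GGH, ADI1, APIP and OAT, which serve folate release from polyglutamate, methionine salvage (ADI1 and APIP) and ornithine turnover. Those that fell were the folate carrier SLC19A1, GPT2 and CBS, which makes the cystathionine that CTH cleaves.

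Set against 25 µM after recovery, 50 µM had 0 of the 10 enzymes called higher and 6 lower, where 14.7% and 7.38% of tested genes were. The log2 differences of the called genes were -0.80 ± 0.21 for ASNS, -0.73 ± 0.25 for ALDH1L2, -0.70 ± 0.15 for SHMT2, -0.68 ± 0.17 for PHGDH, -0.62 ± 0.13 for PSAT1 and -0.505 ± 0.175 for ALDH18A1. For 7 of the 10 every library after 50 µM lay below every library after 25 µM, where 12.9% of tested genes did so. In a fit of these 6 libraries alone 0 of the 6 passed, with adjusted p from 0.0843 to 0.204, and 0 of all tested genes did. Leaving out 1 library gave 4 to 7 calls: ALDH1L2 was lost without any of the 3 libraries at 25 µM or library 2 or 3 at 50 µM, and ALDH18A1 without library 1 or 2 at 25 µM or library 2 or 3 at 50 µM. PYCR1 and MTHFD2 were called in some of these fits.

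The change of effect between the times was tested directly, as the log2 effect of PFOS over vehicle after recovery minus that at 24 h. For 50 µM it was lower for 7 of the 10 enzymes, and higher for 0, where 7.42% of tested genes were called lower and 11.6% higher. The differences were -3.23 ± 0.29 for ASNS, -3.14 ± 0.34 for ALDH1L2, -1.92 ± 0.21 for SHMT2, -1.57 ± 0.19 for PSAT1, -1.53 ± 0.34 for PYCR1, -1.46 ± 0.23 for PHGDH and -1.21 ± 0.21 for MTHFD2. For 25 µM 1 of the 10 passed, where 0.0203% of tested genes were called lower: ASNS, at -1.88 ± 0.28 (adjusted p = 0.00534). ASNS and SERPINE2 were the 2 genes called in all. The differences of ALDH1L2 (-1.34 ± 0.32), PSAT1 (-0.86 ± 0.19) and SHMT2 (-0.82 ± 0.205) did not pass here (adjusted p = 0.203, 0.114 and 0.21) but did with DESeq2 and without the 50 µM recovery libraries. These differences are taken against vehicle at each time, and ASNS and ALDH1L2 in vehicle were themselves called higher after recovery. For ALDH1L2 the vehicle mean was 14.21 CPM at 24 h and 29.99 CPM after recovery. Its mean at 25 µM was 55.24 CPM at 24 h and 47.59 CPM after recovery, with overlapping libraries. The ALDH1L2 difference of -1.34 for 25 µM thus includes the rise in vehicle.

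After recovery the paralog ratios did not share 1 direction against vehicle. SHMT2 to SHMT1 was 1.61, 1.21 and 1.42 after 50 µM and 2.26, 2.47 and 2.27 after 25 µM, against 2.15, 2.19 and 1.97 in vehicle. After 50 µM the 3 libraries thus lay below vehicle, and after 25 µM above it, each with p = 0.1 by the exact permutation test. MTHFD2 to MTHFD1 overlapped vehicle after both doses (exact p = 0.2 after 25 µM and 0.6 after 50 µM).

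Ordered by mean level over the 6 groups, PHGDH, PSAT1, SHMT2, MTHFD2, ALDH1L2 and ASNS had the same order: vehicle at 24 h lowest, then 50 µM after recovery, vehicle after recovery, 25 µM after recovery, 25 µM at 24 h and 50 µM at 24 h. Not every step in that order exceeds the spread. Libraries of 50 µM after recovery overlapped vehicle after recovery for 5 of the 6, SHMT2 excepted, and overlapped vehicle at 24 h for PHGDH, SHMT2 and MTHFD2. The doses at 24 h overlapped for PSAT1 alone among the 6, and 25 µM overlapped between its times for ALDH1L2 alone. PYCR1 had 50 µM after recovery lowest, and otherwise the same order. PSPH and CTH were highest at 25 µM for 24 h, with neighbouring groups overlapping at every step. ALDH18A1 was highest in the 3 groups at 24 h, which overlapped, and lowest after 50 µM and recovery.

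The genes whose profile over the 6 group means was most like the mean profile of the 10 enzymes were GARS, XPOT, TRIM25, SARS and SLC4A11, out of 9719 compared. Likeness is the root mean square difference of centred log2 means, and it was 0.11 for GARS, 0.12 for XPOT and TRIM25, 0.13 for SARS and 0.145 for SLC4A11. The 10 enzymes did not all lie near their own mean profile. Their differences from it ran from 0.07 for PHGDH to 0.50 for ALDH1L2, with 0.43 for ASNS, 0.42 for ALDH18A1 and 0.34 for PSPH. GARS and SARS charge tRNA with glycine and serine, XPOT exports tRNA from the nucleus, TRIM25 is a ubiquitin ligase, and SLC4A11 a membrane transporter. The genes most like ASNS alone were ADM2 (0.14), LMO4 (0.22) and PCK2 (0.23), and those most like CTH, which rests on few counts, were CLTCL1 (0.11), IFT172 (0.12) and LLGL1 (0.13). These are descriptions over 6 points and carry no test.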

How the data were processed

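The deposited file holds whole-number counts for each gene symbol in 18 columns, 1 for each RNA-seq library, which the authors did not normalize, and 0 columns were left without a sample. RNA was extracted with TRIzol and made into Smart-seq2 libraries with poly(A) selection and paired ends, per the labels' protocols. Trimmomatic, STAR, DESeq2 and MACS2, with GRCh38 and hg38, are named without versions in the submitters' processing notes. How reads were counted, with which annotation and whether by strand, was not given in the sources used here, and reads of overlapping genes cannot be told apart.

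Genes were kept by filterByExpr (minimum count 10), which left 9847 genes holding 99.2% of counts. Of all symbols 7391 had no count. edgeR 4.0.16 in R 4.3.3 fitted 1 mean per group to all 18 libraries, with TMM scaling and two-sided quasi-likelihood tests, Benjamini-Hochberg adjusted over all genes (threshold 0.05). Each SE of a log2 change was worked back from the test, as the absolute log2 change over the square root of its F statistic. The median biological coefficient of variation was 17.2%. Paralog ratios used a pseudocount of 0.5 and pairs with at least 10 counts per library, which left out ALDH1L2/ALDH1L1. Some genes of the lists are not reported here. The fit was checked on simulated data. Chi-square per degree of freedom between replicates was 1.29 to 21.4, so each library was counted separately. The named genes are the 10 enzymes, the called genes of the pathway lists and the genes nearest in profile (at least 5 CPM). Members, lists and rules were chosen with earlier results of these data known. Alternatives were DESeq2 1.42.0, no TMM, no filter, fewer libraries, thinning, a replicate block, leaving out 1 library, and a pseudocount of 1.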

Additional observations from a re-analysis of the deposited data

Results flagged for a closer look

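The effect of PFOS over vehicle differed between the 2 times for 8 results, by a test of the difference itself (edgeR, adjusted over all 9847 genes). Each value is the log2 effect after recovery minus that at 24 h. For 50 µM PFOS it was -3.228 for ASNS (adjusted p = 4.97e-07), -3.142 for ALDH1L2 (5.31e-06), -1.918 for SHMT2 (6.07e-06), -1.572 for PSAT1 (1.73e-05), -1.529 for PYCR1 (0.00504), -1.456 for PHGDH (0.000453) and -1.211 for MTHFD2 (0.000818). For 25 µM PFOS it was -1.884 for ASNS (0.00534). Vehicle itself changed between the times, and the values include this: ASNS was higher after recovery by a log2 change of 1.28 and ALDH1L2 by 1.09. At 25 µM the mean of ASNS was 232 CPM at 24 h and 153 CPM after recovery. These 8 values kept their sign and their side of the threshold in every alternative run, leaving out single libraries included. The 50 µM values rest on recovery libraries with a ribosomal protein share of 2.94% to 7.58%, whose part in them was not tested.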

How the results depend on the processing

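Counts of the 10 enzymes called (direction apart) are set here against those given above. Without any 1 library they stayed at 6 for 25 µM over vehicle at 24 h, 7 for 50 µM over vehicle and 1 for 50 over 25 µM; after recovery they were 0 for 25 µM, 0 to 2 for 50 µM (against 1) and 4 to 7 for 50 over 25 µM (against 6); and they were 1 (against 2) for vehicle between times, 1 for the change of effect at 25 µM and 7 to 8 at 50 µM. For 50 over 25 µM at 24 h the count of 1 was 2 with DESeq2, 4 with the compared libraries alone and 3 without the 50 µM recovery libraries. For 50 µM after recovery the count of 1 was 2 with DESeq2, 2 without TMM, 2 without the filter and 0 with the compared libraries alone, which also gave 0 for 50 over 25 µM after recovery (against 6). For the change of effect at 25 µM the count of 1 was 4 with DESeq2, 4 with the compared libraries alone and 4 without the 50 µM recovery libraries. For vehicle between times it was 4 without the 50 µM recovery libraries, 1 in thinned counts and 1 with the replicate block. The cause of these moves was not tested.

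The replicate numbers did not pair the libraries: 7 of 45 same-numbered pairs had a correlation of deviations over 0.1 (range -0.338 to 0.394), and in 0 of 15 pairs of groups did every number. With the replicate number as a block, 6, 7 and 1 enzymes were called at 24 h, 5 for 50 over 25 µM after recovery, and the other counts were the same except for vehicle.

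Signs turned only for log2 differences that were not called. Those of ALDH18A1 were -0.023 without TMM and -0.026 without the filter for 50 over 25 µM at 24 h, and 0.022 without TMM and 0.020 in thinned counts for 25 µM after recovery. In thinned counts PSPH after 25 µM and recovery was -0.037 and MTHFD2 after 50 µM and recovery 0.014. Leaving out 1 library at a time, ALDH18A1 ran from -0.074 to 0.09 (25 µM, 24 h), -0.079 to 0.145 (50 µM, 24 h), -0.116 to 0.108 (50 over 25 µM, 24 h), -0.133 to 0.056 (25 µM, recovery) and -0.17 to 0.043 (change of effect, 25 µM). PSPH ran from -0.165 to 0.118 after 25 µM and recovery. After 50 µM and recovery PHGDH ran from -0.367 to 0.043, MTHFD2 from -0.258 to 0.043 and ALDH1L2 from -0.509 to 0.157. Between vehicle times PYCR1 ran from -0.04 to 0.245 and CTH from -0.079 to 0.551. The MTHFD2 to MTHFD1 log2 ratio after 50 µM and recovery ran from -0.071 to 0.442.

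Counts over all genes moved more. The 122 genes called at 25 µM for 24 h were 49 to 75 without 1 library, 59 in thinned counts and 416 with the compared libraries alone, and the 2800 after 50 µM and recovery were 1600 without 50 µM library 2, 4074 without library 1 and 864 with the compared libraries alone. The 1848 at 50 µM for 24 h were 1139 to 1707 without 1 library, 1191 in thinned counts and 2860 with the compared libraries alone. The 729 for 50 over 25 µM at 24 h were 347 to 541, 455 and 1932 in the same 3 settings, and 1544 without the 50 µM recovery libraries. The 2172 for 50 over 25 µM after recovery were 931 to 3766 without 1 library and 0 with the compared libraries alone. The 1878 for the change of effect at 50 µM were 1188 to 3314 without 1 library. The 2 for that at 25 µM were 37 with DESeq2 and 48 without the 50 µM recovery libraries, and the 96 for vehicle between times were 12 to 72 without 1 library and 433 without the 50 µM recovery libraries. CTH had the fewest counts of the 10 enzymes, 281 over all libraries.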
